A study of Mus musculus with 4 samples.

Results

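Free thymopentin (TP5) was compared with no treatment in myeloid cells sorted from the lungs of mice carrying a pre-metastatic niche (PMN), and the comparison rests on 2 of the 4 samples of the series, the TP5 library and the control library. C57BL/6 mice of 6 to 8 weeks were given melanoma-conditioned medium (MCM, 300 μL per mouse, into the peritoneum) on 10 days in a row and B16F10 melanoma cells by the tail vein on day 7, and both groups share this regimen. The control mice had no peptide, whereas the TP5 mice received TP5 under the skin at 40 μM/kg/day from day 3, and lungs of both groups were taken on day 10. CD11b+Ly6g+ myeloid-derived suppressor cells (MDSCs) were sorted from enzyme-digested lung, and the cells of 10 to 12 mice were combined into 1 library per group. The other samples of the series, used here only for values set side by side, come from mice given FR17, which carries TP5 on a peptide that assembles into sheets, or sFD17, its scrambled counterpart, at the same dose and times.

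MDSCs are immature myeloid cells that gather in tumour-bearing hosts and restrain T cells, and those bearing Ly6G are of the granulocytic kind. CD11b and Ly6G also mark neutrophils, so the sort takes both. Thymopentin is a pentapeptide copied from the active site of thymopoietin, a thymic protein, and is used as an immune modulator. A pre-metastatic niche is a distant tissue altered by tumour-derived factors before tumour cells settle in it, with recruited myeloid cells, activated fibroblasts and remodelled matrix.

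The library totals were 17132880 counts in control and 17165184 in TP5, and 15543071 to 19638228 over the 4 samples. Of 54532 genes in the table, 16369 had at least 10 counts in at least 1 library and were compared. Differences are on the log2 scale of CPM (counts scaled to the library total), TP5 minus control, after scaling with TMM and with 2 counts added, and a gene was called when the 2 libraries differed at least 2-fold. Since each group has 1 library, no difference has a replicate check and no p-value is given for any of them. Ratios of CPM are TP5 relative to control and carry the 95% exact interval of the pair of counts, which covers counting error only, as do the Wilson intervals of shares. For a gene read at 0, a floor of 3 counts was set, equal to 0.178 CPM for control and 0.171 CPM for TP5.

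Both sorting markers were present in TP5 and control. Itgam, which encodes CD11b, had 6430 counts in control and 6497 in TP5, a ratio of 0.973 (0.940 to 1.01), although 68.7% of its exon bases are annotated in Gm49368 as well. Ly6g had 1234 counts in control and 1716 in TP5, a ratio of 1.34 (1.24 to 1.44). All 18 neutrophil markers had counts in both libraries, and they took 4.49% of all counts in control (4.48 to 4.50) and 4.81% in TP5 (4.80 to 4.82). Of these markers 11 were higher in TP5 and 7 lower, 0 of them past 2-fold. Csf3r, the receptor of the granulocyte growth factor G-CSF, had 83644 and 62645 counts, a ratio of 0.721 (0.714 to 0.729), whereas the granule genes Ngp (49391 and 87989), Ltf (35104 and 64176) and Camp (13348 and 25703) were higher. Without the 10 genes with the most counts in each library, the direction of this share turned, and TP5 stood at 0.913 times control.

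Across all genes the TP5 and control libraries were centred on each other, with a median log2 difference of 0.00, and the middle of the distribution lay between −0.25 and 0.23 (quartiles). Of the 16369 genes, 523 (3.20%) were at least 2-fold higher in TP5 and 816 (4.99%) at least 2-fold lower. Most of these calls were in genes with few counts. Where neither library reached 50 counts, 19.2% of 5101 genes were past 2-fold, whereas above 1000 counts 0.768% of 3125 genes were. Among the 11268 genes with at least 50 counts in TP5 or control, 140 (1.24%) were called higher and 220 (1.95%) lower. The share of calls thus depended on the level, and these percentages stand as the background for each class below.

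**Figure D1:**
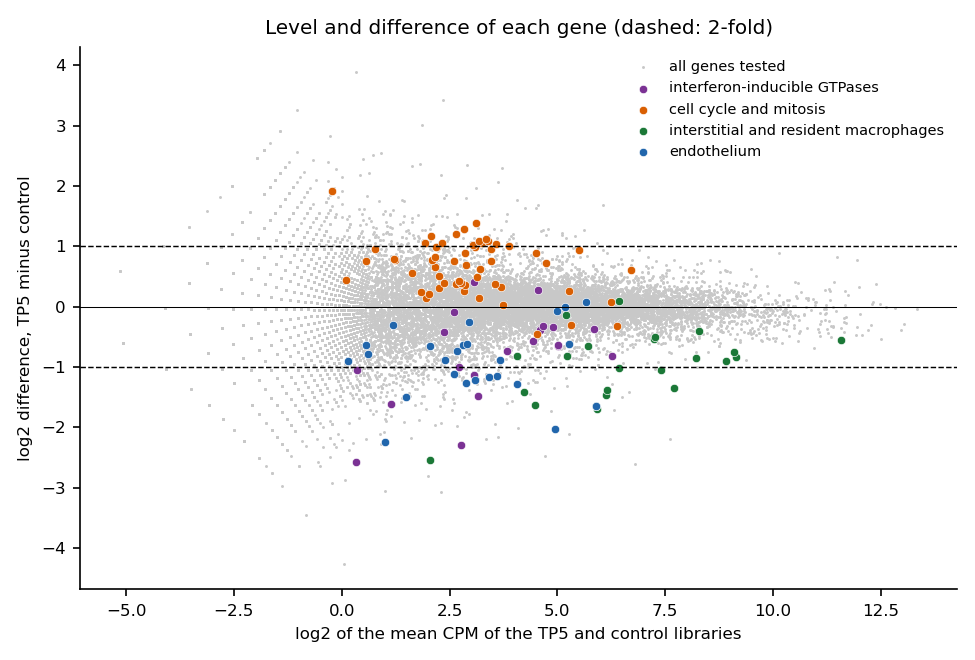
Each point is 1 of the genes compared, with the log2 of its mean CPM in the TP5 and control libraries on the horizontal axis and its log2 difference (TP5 minus control) on the vertical axis; dashed lines mark 2-fold. Cell cycle genes (orange) lie mostly above 0, with a class median of 0.76, and genes of resident macrophages (green), endothelium (blue) and the interferon-inducible GTPases (purple) mostly below, with medians of −0.85, −0.87 and −0.64.

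Among genes with at least 50 counts in either library, the 15 largest excesses in TP5 held 5 immunoglobulin segments, 2 pseudogenes and 1 unnamed gene model. Read assignment among near-identical segments and copies is uncertain, so these 8 are given as a group. The remaining 7 genes were led by Cd207 (ENSMUSG00000034783, chromosome 6 from 83671215 to 83677857), which encodes langerin, a lectin of certain dendritic cells, with 7 counts in control and 51 in TP5 beside 17 in sFD17 and 41 in FR17. Aqp3, a water and glycerol channel, had 59 counts in control and 244 in TP5, a ratio of 3.98 (2.99 to 5.39). The other 2 treated libraries lay between, with 85 and 104 counts of Aqp3. Mpo (ENSMUSG00000009350, chromosome 11 from 87793581 to 87804413), the myeloperoxidase of primary granules, had 38 counts in control and 148 in TP5, a ratio of 3.75 (2.61 to 5.51). Cd209e, a C-type lectin of the DC-SIGN family, had 54 and 201 counts, a ratio of 3.58 (2.64 to 4.94). Sept3, a septin, had 126 and 452 counts, a ratio of 3.45 (2.83 to 4.24). Snrpe, a component of the spliceosome's core ring, had 79 and 351 counts, and Eif3j2, a close copy of the initiation factor gene Eif3j1, had 29 and 143. For Eif3j1 itself, with 1107 of its exon bases opposite Spg11, the counts were 525 and 620.

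The 15 largest deficits in TP5 were named genes throughout. Wnt2 (ENSMUSG00000010797, chromosome 6 from 17988940 to 18030585), a Wnt ligand made by lung mesenchyme, had 62 counts in control and 6 in TP5, a ratio of 0.0932 (0.0329 to 0.215). Prg4 (ENSMUSG00000006014, chromosome 1 from 150449412 to 150466165), the lubricating proteoglycan lubricin, had 3226 and 550 counts, a ratio of 0.164 (0.150 to 0.180). Prg4 also had 177 counts in sFD17 and 2764 in FR17, so that TP5 lay between sFD17 and the pair formed by control and FR17. Cd209f and Cd209g, lectins of the same family as Cd209e, went the other way from it. Cd209f had 749 and 139 counts, a ratio of 0.179 (0.148 to 0.214), and Cd209g had 284 and 63, a ratio of 0.214 (0.160 to 0.282). Fcna, which encodes ficolin A, a soluble lectin that starts the complement cascade, had 1060 and 253 counts, a ratio of 0.230 (0.1996 to 0.264). Pla2g2d, a secreted phospholipase, had 339 and 77 counts, and Tgfb2, a ligand of the TGF-β family, had 190 and 39. The ratio of Tgfb2 was 0.198 (0.136 to 0.280). Enpep, the aminopeptidase that trims angiotensin, had 85 and 18 counts, and Slc10a6, a carrier of sulfated steroids, had 54 and 10. Srp54b, a subunit gene of the signal recognition particle, had 151 and 17 counts, but its near-identical neighbours Srp54a (60 and 90) and Srp54c (139 and 196) were higher in TP5, and reads may pass between the 3 copies. The others, C6, Vsig4, C4b, Iigp1 and Sox17, belong to the classes described next.

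Genes were grouped into 80 functional classes and cell type marker lists. A class is described if at least 5 of its members were compared and either its median lay 0.25 or more from that of all genes or at least 20% of its members were past 2-fold, which held for 31 of them. The medians of the other classes with at least 5 members compared lay between −0.24 and 0.24.

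**Figure D2:**
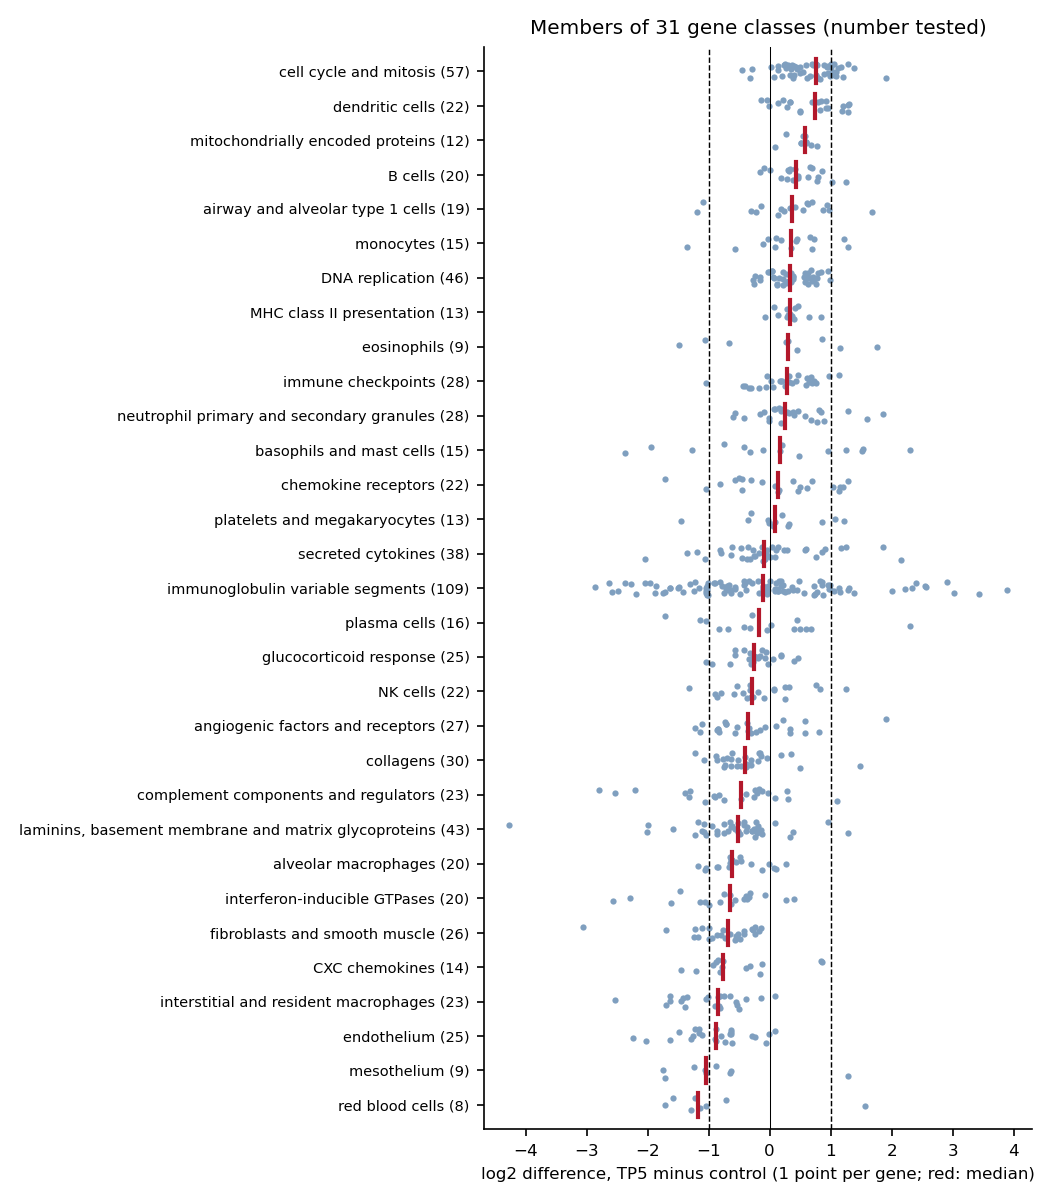
Each point is the log2 difference (TP5 minus control) of 1 gene, the rows are the 31 described classes with the number of members compared in brackets, red bars are class medians and dashed lines mark 2-fold. Medians run from −1.18 for red blood cell genes to 0.76 for cell cycle genes, and the immunoglobulin variable segments, most of them with few counts, spread over both sides.

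The interferon-inducible GTPases were lower in TP5. These proteins, the guanylate-binding proteins (GBPs) and the immunity-related GTPases (IRGs), are made by cells that sense interferon-γ and attack the vacuoles of intracellular microbes. Of 20 members compared, 18 were lower in TP5, 6 (30.0%) at least 2-fold, against a background of 4.99%, and 0 were 2-fold higher. The class median was −0.64, beside 1.41 in sFD17 and −0.26 in FR17 against the same control library.

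Short interferon-response motifs were read in the promoters of this class. Its members were listed as interferon-inducible, so a high share of such motifs does not bear on TP5. A RefSeq window of 300 bases, from 250 before to 50 after the transcription start (GRCm38.p6), was found for 13 of the 20 members. The motifs were TTCNNNGAA, the core of the γ-activated site of interferon-γ response, and AANNGAAA, a core shared by sites of interferon regulatory factors, both read on both strands. TTCNNNGAA occurred in at least 1 window of 6 of the 13 members, and in 8.30% of the 32851 windows of all genes. AANNGAAA did so in 12 of the 13 members, and in 23.9% of all windows. A member with several windows counts if any of them matches, so shares of members and of windows are unlike units. Windows are shown with matches in capitals for Tgtp2 and Gbp2, members with ratios of TP5 to control of 0.495 and 0.569. In the window of Tgtp2 (chr11:49064163-49064462, minus strand), 1 match of TTCNNNGAA overlaps 1 of the 3 matches of AANNGAAA. The window of Gbp2 (chr3:142620413-142620712, plus strand) holds 1 match of AANNGAAA and none of TTCNNNGAA. A match describes these letters and does not show that a factor binds there.
Tgtp2: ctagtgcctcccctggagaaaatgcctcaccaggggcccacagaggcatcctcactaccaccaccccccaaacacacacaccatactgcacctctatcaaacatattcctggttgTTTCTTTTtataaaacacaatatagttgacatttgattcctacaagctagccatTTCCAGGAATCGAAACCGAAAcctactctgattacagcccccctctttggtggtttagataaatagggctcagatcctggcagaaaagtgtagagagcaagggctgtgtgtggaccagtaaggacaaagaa
Gbp2: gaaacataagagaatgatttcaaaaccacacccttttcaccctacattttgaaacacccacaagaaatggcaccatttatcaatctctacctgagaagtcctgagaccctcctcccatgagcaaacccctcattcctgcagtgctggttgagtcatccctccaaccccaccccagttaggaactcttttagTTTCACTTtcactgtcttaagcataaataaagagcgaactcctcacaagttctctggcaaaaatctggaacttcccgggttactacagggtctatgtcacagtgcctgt

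Among the GBPs, Gbp6 had 57 counts in control and 18 in TP5, beside 27 in sFD17 and 75 in FR17, and its ratio of TP5 to control was 0.304 (0.168 to 0.524). Gbp4 had 223, 82, 316 and 288 counts in the same order, a ratio of 0.354 (0.272 to 0.458). Gbp8 had 195, 91, 111 and 271 counts, a ratio of 0.449 (0.347 to 0.579). For Gbp6, Gbp4 and Gbp8 the TP5 library was thus the lowest of the 4. GBP genes are close copies of one another, and 29.0% of Gbp6's exon bases are shared with an unnamed model on the same strand, so the split of reads among them is uncertain. Gbp2 had 1654 counts in control and 978 in TP5 against 15599 in sFD17 and 1605 in FR17, a ratio of 0.569 (0.526 to 0.617). Gbp5 had 304, 188, 2774 and 306 counts, a ratio of 0.596 (0.494 to 0.717).

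Among the IRGs, Iigp1 had 191 counts in control and 39 in TP5, beside 84 in sFD17 and 261 in FR17, a ratio of 0.197 (0.136 to 0.279). Tgtp2, a T cell-specific GTPase gene with a near-identical copy, had 148, 76, 423 and 175 counts, a ratio of 0.495 (0.370 to 0.656). Igtp, also named Irgm3, had 663, 440, 2048 and 732 counts, a ratio of 0.639 (0.565 to 0.722). Irgm1 lay nearer to control, at 561, 461, 2261 and 688 counts and a ratio of 0.791 (0.698 to 0.897). The large GTPase models 9930111J21Rik1 and 9930111J21Rik2 were the only members of the class above control, at log2 differences of 0.40 and 0.27. The wider list of type I interferon-stimulated genes had a median of −0.08 over 54 members, of which 20 were higher and 34 lower in TP5.

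CXC chemokines, ligands that draw neutrophils and lymphocytes, were lower as well. Of 14 compared, 12 were lower in TP5, and 2 of them (14.3%) at least 2-fold. The class median was −0.77, or −0.58 with genes at 3 or fewer counts in both libraries set to no difference, beside −0.04 in sFD17 and 0.08 in FR17. Pf4, which encodes platelet factor 4 and is also made by resident macrophages, had 1733 counts in control and 653 in TP5, beside 247 in sFD17 and 2954 in FR17, a ratio of 0.363 (0.331 to 0.397). Cxcl9, an interferon-γ-induced ligand of CXCR3, had 211, 94, 268 and 282 counts, a ratio of 0.429 (0.333 to 0.550). Of the ligands of CXCR2, the main neutrophil receptor of the family, Cxcl3 had 2054 counts in control and 1115 in TP5, a ratio of 0.523 (0.486 to 0.563). Cxcl1 had 4203 and 2557 counts, a ratio of 0.586 (0.558 to 0.616). Cxcl2 had 152311 and 120978 counts, a ratio of 0.765 (0.759 to 0.771). These 3 ligands were all below control in TP5 but none by 2-fold. Cxcl12, the stromal ligand of CXCR4, had 190 and 107 counts, and Cxcl13, which attracts B cells, had 323 and 190.

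The chemokine receptors moved in both directions, with 5 of 22 members (22.7%) at least 2-fold higher and 2 (9.09%) at least 2-fold lower, around a median of 0.15. The receptors called higher are known from lymphocytes, dendritic cells and eosinophils. Xcr1, found on cross-presenting dendritic cells, had 40 counts in control and 104 in TP5, a ratio of 2.50 (1.72 to 3.70). Ccr9, a gut-homing receptor also found on plasmacytoid dendritic cells, had 22 and 55, with 18.8% of its exon bases opposite an unnamed model, and Ccr3, the eotaxin receptor, had 57 and 134. The call for Ccr4 rested on 13 and 32 counts and that for Ccr8 on 15 and 34. Receptors typical of neutrophils were instead below control, since Cxcr2 had 14167 and 10699 counts, a ratio of 0.727 (0.709 to 0.746), and Ccrl2 had 31130 and 21782, a ratio of 0.674 (0.662 to 0.686). The 2 called lower were Ccr10, on 4 counts and 1, and Ackr3, an atypical receptor that clears CXCL12, which had 153 and 47 counts, a ratio of 0.296 (0.209 to 0.413). Ccr2, the receptor of inflammatory monocytes, had 2357 and 3955 counts, a ratio of 1.62 (1.54 to 1.70).

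Of 38 secreted cytokines, 4 were at least 2-fold higher and 4 at least 2-fold lower (10.5% each way), and the class median was −0.10. Il10, the anti-inflammatory interleukin, had 608 counts in control and 276 in TP5, beside 228 in sFD17 and 818 in FR17, a ratio of 0.437 (0.378 to 0.505). Il12b, the subunit shared by interleukins 12 and 23, had 55, 131, 63 and 97 counts, a ratio of 2.29 (1.66 to 3.20). Il4, a cytokine of basophils and helper T cells, had 20, 52, 23 and 45 counts, a ratio of 2.50 (1.47 to 4.43). TP5 was thus highest of the 4 for Il12b and Il4, while for Il10 it lay near sFD17. The other calls had under 50 counts in both libraries: Ifnb1 (47 and 18), Csf2 (24 and 11), Il34 (6 and 0), Il13 (5 and 24) and Tnfsf11 (5 and 30).

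Complement genes were lower in TP5. The cascade tags microbes and debris for uptake, and C1q, the opening complex, is made in tissues mainly by macrophages. Of 23 members compared, 19 were lower, 7 (30.4%) at least 2-fold, and 1 was at least 2-fold higher. The class median was −0.47, and −0.79 among the 18 members with at least 50 counts. Along the classical pathway, C1qa had 12261 counts in control and 7170 in TP5, C1qb had 11644 and 7191, and C1qc had 10512 and 5852, with ratios of 0.563, 0.595 and 0.536. C1ra, the protease that C1q activates, had 271 and 107 counts, a ratio of 0.380 (0.301 to 0.477), and its partner C1s1 had 126 and 52. C4b (ENSMUSG00000073418, chromosome 17 from 34728380 to 34743882), which is cleaved next, had 5421 counts in control and 1225 in TP5, beside 675 in sFD17 and 6782 in FR17, a ratio of 0.218 (0.204 to 0.232). Its close copy C4a went the other way on 19 and 45 counts. C6, a part of the membrane attack complex, had 119 and 16 counts, a ratio of 0.130 (0.0717 to 0.219). Of the regulators, Serping1, the C1 inhibitor, had 337 and 139 counts. C3, the hub of the cascade, was near control at 10141 and 11228 counts, a ratio of 1.07 (1.04 to 1.10).

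The complement genes moved beside those of macrophages, but C1qa, C1qb, C1qc and Vsig4 are on both lists. Of 23 markers of interstitial and other resident macrophages, 22 were lower in TP5, 10 (43.5%) at least 2-fold, with a median of −0.85 beside −1.86 in sFD17 and 0.23 in FR17. In bulk samples, fewer cells of a type and less RNA per cell cannot be told apart. The sort was for CD11b+Ly6g+ cells, and whether these transcripts came from other cells that passed it was not tested. The whole list took 0.802% of the counts in control (0.798 to 0.806) and 0.512% in TP5 (0.509 to 0.515), and none of its markers was at 0 in either library. Vsig4, a complement receptor of tissue macrophages, had 121 counts in control and 20 in TP5, beside 13 in sFD17 and 82 in FR17, a ratio of 0.159 (0.0939 to 0.257). Lyve1, a hyaluronan receptor shared by perivascular macrophages and lymphatic vessels, had 1533, 510, 282 and 2332 counts, a ratio of 0.320 (0.289 to 0.354). Ccl8, a monocyte chemokine, had 1559, 500, 236 and 2698 counts, a ratio of 0.309 (0.279 to 0.342). These 3 genes put TP5 between sFD17 and control. Folr2, a folate receptor, had 569 and 190 counts, but 63.1% of its exon bases lie opposite an unnamed model. Cd163, the haemoglobin scavenger receptor, had 3879 and 1954 counts, a ratio of 0.485 (0.459 to 0.512), and Apoe, the lipid carrier, had 61643 and 43513, a ratio of 0.680 (0.671 to 0.688). Trem2 (647 and 608) and Cx3cr1 (1413 and 1566) were nearest to control.

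Alveolar macrophage markers were lower by less. Of 20, 17 were lower in TP5, 3 at least 2-fold, and the median was −0.62 beside −1.98 in sFD17 and 0.48 in FR17. Marco, a scavenger receptor for particles, had 533 counts in control and 268 in TP5, beside 145 in sFD17 and 848 in FR17, a ratio of 0.484 (0.416 to 0.562). Ear1, a ribonuclease, had 407, 202, 23 and 827 counts, and Fabp1, a fatty acid carrier, had 145, 66, 9 and 394. Their ratios of TP5 to control were 0.478 (0.402 to 0.567) and 0.438 (0.323 to 0.590). Chil3, with 45908 and 47257 counts, did not share the difference and held most of the list's counts, so the list as a whole took 0.441% in control and 0.410% in TP5.

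Structural cells of the lung were represented by small shares of counts, and most of their genes were lower in TP5. For endothelium, 24 of 25 markers were lower, 10 (40.0%) at least 2-fold, with a median of −0.87 beside −0.02 in sFD17 and 0.45 in FR17. The list took 0.0462% of counts in control and 0.0279% in TP5. Lyve1, which is also on the resident macrophage list, held 1533 of its 7909 counts in control and 510 of 4793 in TP5. Without Lyve1 the ratio of the shares, TP5 to control, moved from 0.605 to 0.67. Sox17, an arterial transcription factor, had 57 counts in control and 11 in TP5, beside 38 in sFD17 and 68 in FR17, a ratio of 0.186 (0.0879 to 0.358), with 16.8% of its exon bases opposite an unnamed model. Ednrb, an endothelin receptor of aerocyte capillaries, had 833, 210, 125 and 1025 counts, a ratio of 0.243 (0.208 to 0.283). Cdh5, the junction protein VE-cadherin, had 402, 170, 346 and 612 counts, a ratio of 0.407 (0.338 to 0.488). For Sox17 and Cdh5 TP5 was the lowest of the 4, whereas Ednrb was lower still in sFD17. Pecam1, which myeloid cells also make, had 830 and 915 counts, a ratio of 1.06 (0.965 to 1.17).

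All 26 markers of fibroblasts and smooth muscle were lower in TP5, 6 (23.1%) of them at least 2-fold, with a median of −0.69 beside −0.29 in sFD17 and 0.06 in FR17. Dcn, the collagen-binding proteoglycan decorin, had 509 counts in control and 226 in TP5, beside 177 in sFD17 and 765 in FR17, a ratio of 0.428 (0.364 to 0.501). Pdgfra, the receptor that marks lung fibroblasts, had 87, 37, 47 and 117 counts, a ratio of 0.410 (0.271 to 0.608). Dpt, a matrix organiser, had 170 and 81 counts, and Fbln1, an elastic-fibre protein, had 165 and 75. Acta2, the actin of myofibroblasts, differed less, at 1098 and 971 counts and a ratio of 0.852 (0.780 to 0.929). The list took 0.187% of counts in control and 0.137% in TP5. Fn1, which is also on the monocyte list, held 17225 of its 32080 counts in control and 12074 of 23499 in TP5. Without Fn1 the ratio of the shares, TP5 to control, moved from 0.731 to 0.768. Of 9 mesothelial genes, 8 were lower, 5 of them at least 2-fold, and 1 was at least 2-fold higher, with a median of −1.04. Only 3 reached 50 counts, and of these Igfbp6, a growth factor-binding protein, had 234 and 102.

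Matrix genes followed the same direction. Of 30 collagen genes, 26 were lower in TP5, 2 (6.67%) at least 2-fold, and 1 was at least 2-fold higher, with a median of −0.40. The fibrillar collagens Col1a1 (1014 counts in control and 621 in TP5), Col1a2 (1024 and 584) and Col3a1 (1500 and 941) had ratios of 0.590, 0.549 and 0.604. Of 43 laminins, basement membrane and matrix glycoprotein genes, 38 were lower, 10 (23.3%) at least 2-fold, with a median of −0.52. Ltbp1, which tethers latent TGF-β to the matrix, had 461 counts in control and 118 in TP5, beside 59 in sFD17 and 493 in FR17, a ratio of 0.246 (0.1996 to 0.302). Lama3, a chain of epithelial laminin, had 35 counts in control and 0 in TP5, at least 12.1-fold lower. Thbs1, which encodes thrombospondin and is also made by myeloid cells, had 60894 and 79483 counts, a ratio of 1.26 (1.24 to 1.27), and Vcan, a proteoglycan of monocytes, had 37 and 96, a ratio of 2.50 (1.69 to 3.76). Other members above control included Lama5 (58 and 79 counts) and Agrn (773 and 853), for which the counting interval of the ratio included 1.

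Among 27 angiogenic factors and receptors, 19 were lower in TP5, 3 (11.1%) at least 2-fold, and 1 was at least 2-fold higher, with a median of −0.36. The receptors Tie1 (202 counts in control and 89 in TP5) and Tek (142 and 67) had ratios of 0.424 (0.327 to 0.547) and 0.454 (0.335 to 0.612). Epas1, the endothelial hypoxia-inducible factor, had 983 and 560 counts, and Angptl4, a lipase inhibitor, had 523 and 306. Vegfa, the main angiogenic ligand, was close to control at 3752 and 3486 counts, a ratio of 0.895 (0.854 to 0.937).

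The study also measured proteins in lung, and their genes were read here in the sorted cells. Tgfb1 had 4534 counts in control and 5808 in TP5, a ratio of 1.23 (1.19 to 1.28), and Mmp9 had 33520 and 36785, a ratio of 1.06 (1.04 to 1.07). Il6 had 1502 and 1378 counts, a ratio of 0.884 (0.821 to 0.951), and Fn1, fibronectin, had 17225 and 12074, a ratio of 0.675 (0.659 to 0.691). Mmp2 had 224 and 132, a ratio of 0.568 (0.454 to 0.707). None of these 5 was past 2-fold. For Lox (59 and 42 counts), Postn (89 and 69), Angpt2 (39 and 24) and Nos2 (13 and 10), the counting interval of the ratio included 1.

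**Figure D3:**
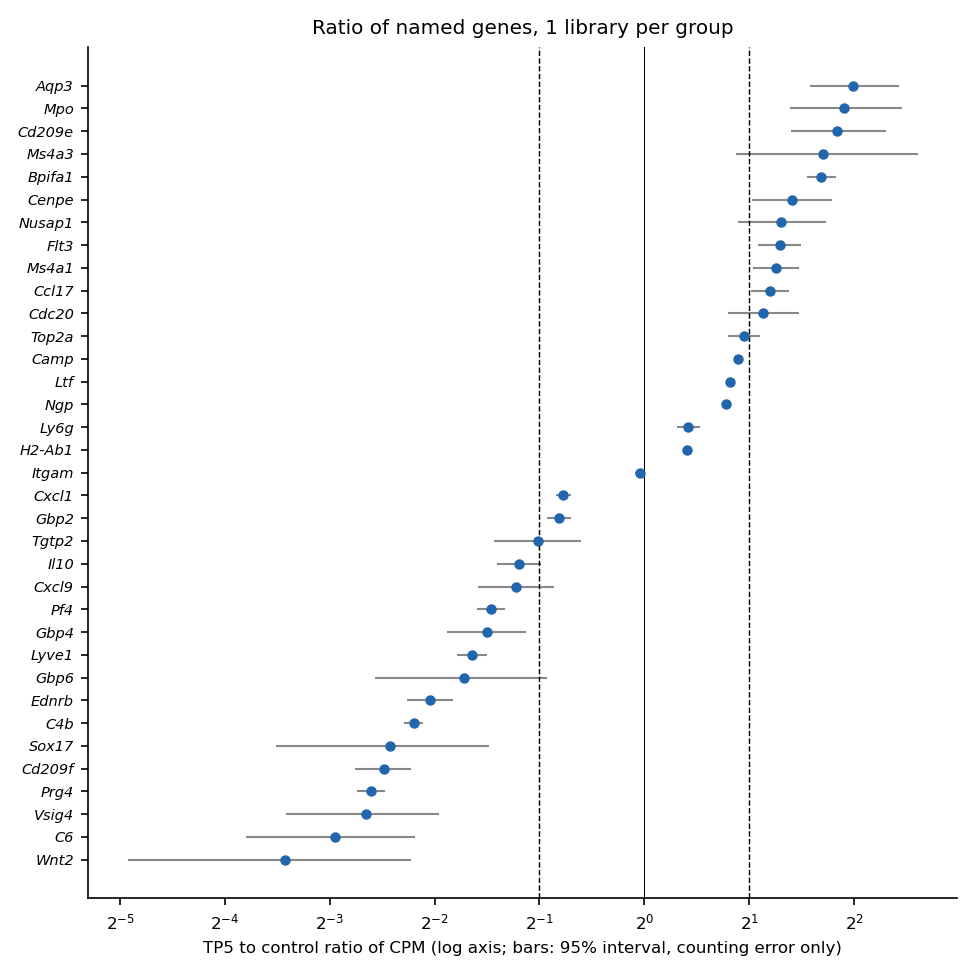
The ratio of CPM in TP5 to control is plotted on a log axis for named genes, with bars for the 95% interval from counting error and dashed lines at 2-fold. Genes of stroma, macrophages and complement fill the lower end down to Wnt2 at 0.0932. Of the sorting markers, Itgam lies at 0.973 and Ly6g at 1.34. Granule, cell cycle, dendritic and B cell genes fill the upper end up to Aqp3 at 3.98.

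Granule genes were higher in TP5. Neutrophil precursors in the marrow make the proteins of primary granules first, those of secondary granules next and gelatinase last. Of 28 granule genes, 21 were higher in TP5, 3 (10.7%) at least 2-fold, and 0 were 2-fold lower, with a median of 0.25 beside 0.46 in sFD17 and 0.01 in FR17. Of the primary granule genes, Mpo had 38 counts in control and 148 in TP5, beside 75 in sFD17 and 141 in FR17, and 512 of its exon bases lie opposite an unnamed model. Elane, neutrophil elastase, had 35, 91, 59 and 91 counts, a ratio of 2.50 (1.68 to 3.81). Ms4a3, a marker of granulocyte and monocyte precursors, had 16, 54, 21 and 40 counts, a ratio of 3.25 (1.83 to 6.08). Each of these 3 was above control in all 3 treated libraries. Prtn3, proteinase 3, differed less, with 90 and 114 counts.

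The secondary granule genes were below 2-fold, and their narrow intervals cover counting error only. Camp, the antimicrobial cathelicidin, had 13348 counts in control and 25703 in TP5, beside 14744 in sFD17 and 26153 in FR17, a ratio of 1.85 (1.82 to 1.89). Ltf, the iron-binding lactoferrin, had 35104, 64176, 41003 and 64504 counts, a ratio of 1.76 (1.74 to 1.78). Ngp, neutrophilic granule protein, had 49391, 87989, 55452 and 83390 counts, a ratio of 1.72 (1.70 to 1.74). In CPM, TP5 was the highest of the 4 libraries for all 3 genes. Lcn2, a siderophore-binding protein, had 21357 and 29370 counts, a ratio of 1.32 (1.301 to 1.35), and Cd177, a neutrophil surface protein, had 6906 and 10736, a ratio of 1.497 (1.45 to 1.54). The gelatinase-stage gene Mmp9 was at 1.06 times control and Mmp8, the neutrophil collagenase, at 1.14 (1.11 to 1.17).

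Genes of the cell cycle and mitosis were higher in TP5. Of 57 compared, 54 were higher, 14 (24.6%) at least 2-fold, against a background of 3.20%, and 0 were 2-fold lower. The class median was 0.76, beside 0.17 in sFD17 and 0.54 in FR17, and 13 of the 14 called genes had at least 50 counts in TP5 or control. Many genes of this class are known to carry CCAAT boxes, bound by NF-Y, and the cell cycle homology region TTTGAA, read by the MuvB complexes. Of 47 members with a RefSeq window, 34 held CCAAT and 32 held TTTGAA on either strand in at least 1 window. Of all 32851 windows, 37.4% and 17.9% did, which are shares of windows and not of genes. Since the class is known for both motifs, these shares do not bear on TP5. The windows of Cenpe (chr3:135212313-135212612, plus strand), the named member with the largest difference, and Cdc20 (chr4:118437294-118437593, minus strand) are shown with matches in capitals. Cenpe holds 1 CCAAT and no TTTGAA, and Cdc20 holds 2 of the former and 1 of the latter. The window of Nusap1 held neither, which says only that these letters are not in it.
Cenpe: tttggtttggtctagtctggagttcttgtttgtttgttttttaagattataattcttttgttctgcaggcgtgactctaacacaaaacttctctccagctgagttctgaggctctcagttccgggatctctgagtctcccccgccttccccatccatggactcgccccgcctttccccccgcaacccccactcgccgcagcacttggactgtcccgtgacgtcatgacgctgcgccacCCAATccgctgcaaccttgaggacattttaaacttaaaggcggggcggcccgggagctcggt
Cdc20: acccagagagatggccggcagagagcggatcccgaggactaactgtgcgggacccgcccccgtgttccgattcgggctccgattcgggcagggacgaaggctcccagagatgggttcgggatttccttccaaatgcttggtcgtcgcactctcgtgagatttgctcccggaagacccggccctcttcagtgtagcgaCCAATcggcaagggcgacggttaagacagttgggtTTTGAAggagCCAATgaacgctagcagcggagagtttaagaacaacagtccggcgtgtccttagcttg

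By role, the kinetochore motor gene Cenpe had 80 counts in control and 220 in TP5, beside 75 in sFD17 and 207 in FR17, a ratio of 2.65 (2.04 to 3.46). Nusap1, which bundles spindle microtubules, had 69, 177, 91 and 173 counts, a ratio of 2.47 (1.86 to 3.31). Cenpf, another kinetochore protein, had 64, 155, 48 and 130 counts, a ratio of 2.33 (1.73 to 3.17). In CPM, TP5 was the highest of the 4 for these genes and FR17 the next. The chromokinesin gene Kif4 had 43 and 103 counts in control and TP5, and 15.1% of its exon bases lie opposite Pdzd11. Cdc20, the activator of the anaphase-promoting complex, had 107 and 244, a ratio of 2.20 (1.74 to 2.78). Ccna2, the cyclin of S phase and G2, had 103 and 225 counts, Top2a, the topoisomerase of dividing cells, had 524 and 1049, and Mki67, the proliferation marker Ki-67, had 1395 and 2203. Their ratios were 2.10 (1.66 to 2.68), 1.93 (1.73 to 2.15) and 1.52 (1.42 to 1.63). Cdc25b (450 and 342), Kif23 (1560 and 1298) and Cenpa (741 and 627) were the 3 members below control.

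The genes of DNA replication shifted with them by a smaller amount. Of 46, 39 were higher in TP5 and 0 were past 2-fold in either direction, with a median of 0.34 beside 0.02 in sFD17 and 0.42 in FR17. Rrm2, the ribonucleotide reductase subunit of S phase, had 163 and 337 counts, a ratio of 1.99 (1.65 to 2.42), and Mcm10, an initiator of the replication fork, had 68 and 139, a ratio of 1.97 (1.46 to 2.67). Cdc6, which loads the replicative helicase, had 60 and 113 counts, and Dut, which keeps uracil out of DNA, had 82 and 149. Pcna, the sliding clamp, had 2029 and 2548 counts, a ratio of 1.21 (1.14 to 1.28). Which cells carried the cell cycle transcripts cannot be told apart in a bulk library. The marker shares that were higher beside them were those of dendritic cells (0.101% in control and 0.159% in TP5), airway and alveolar type 1 cells (0.0834% and 0.131%), B cells (0.0780% and 0.0994%), T cells (0.0215% and 0.0255%), alveolar type 2 cells (0.0544% and 0.0599%), neutrophils (4.49% and 4.81%) and monocytes (0.583% and 0.609%). The ratio of the last 2 fell to 0.913 without the 10 most abundant genes and to 0.99 without the most abundant marker, respectively. Of 14 alveolar type 2 genes compared, 8 were higher and 6 lower, with 0 at least 2-fold higher and 2 at least 2-fold lower. Among them, Sftpc had 487 counts in control and 299 in TP5, and Napsa had 1869 and 2891. Granule genes were higher as well, with a median of 0.25 over 28 genes. The part of each list in the result was not tested.

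Dendritic cell genes were higher in TP5. Of 22 markers, 19 were higher, 5 (22.7%) at least 2-fold, and 0 were 2-fold lower, with a median of 0.75 beside 0.20 in sFD17 and 0.45 in FR17. Flt3, the receptor that drives dendritic cell development, had 271 counts in control and 688 in TP5, beside 276 in sFD17 and 497 in FR17, a ratio of 2.45 (2.12 to 2.82). Itgae, the CD103 integrin of lung cross-presenting dendritic cells, had 87, 225, 131 and 220 counts, a ratio of 2.49 (1.94 to 3.23). Ccl17, a ligand of CCR4 made by CD11b+ dendritic cells, had 353, 839, 277 and 903 counts, a ratio of 2.29 (2.02 to 2.60). Together with Xcr1 and Ccr9 these were the 5 called genes. Irf4, a factor of the CD11b+ branch, had 469 and 953 counts, a ratio of 1.957 (1.75 to 2.19), and Zbtb46, which separates classical dendritic cells from monocytes, had 160 and 296, a ratio of 1.78 (1.47 to 2.17). The genes of plasmacytoid dendritic cells on the list were uneven. Siglech had 167 and 173 counts, a ratio of 0.998 (0.802 to 1.24), and Tcf4 had 698 and 658, a ratio of 0.908 (0.815 to 1.01), whereas Ccr9 had 22 and 55, a ratio of 2.41 (1.44 to 4.15).

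MHC class II genes, which present antigen to helper T cells, were higher by a small amount. Of 13, 12 were higher in TP5 and 0 past 2-fold, with a median of 0.34 beside −0.43 in sFD17 and 0.21 in FR17. The invariant chain gene Cd74 had 78790 counts in control and 105697 in TP5, a ratio of 1.29 (1.28 to 1.304). H2-Ab1, a β chain, had 39680 and 54637 counts, a ratio of 1.33 (1.31 to 1.34). H2-DMb2, a chain of the peptide exchanger, had 622 and 1154, a ratio of 1.79 (1.62 to 1.97). Ciita, the class's master activator, had 1371 and 1749 counts, a ratio of 1.23 (1.14 to 1.32). Only the protease gene Ctss was below control, at 17832 and 17541 counts.

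Of 15 monocyte markers, 11 were higher in TP5, with a median of 0.34 beside 0.36 in sFD17 and 0.07 in FR17. Ms4a4c, a membrane protein of Ly6C-high monocytes, had 348 counts in control and 842 in TP5, beside 647 in sFD17 and 559 in FR17, a ratio of 2.33 (2.05 to 2.65), and it and Vcan were the 2 called higher. Ly6c2 had 1739 and 2874 counts, a ratio of 1.59 (1.499 to 1.69), and Ace, an enzyme of patrolling monocytes, had 4125 and 7097, a ratio of 1.66 (1.59 to 1.72). Of the 4 markers below control, F13a1, a coagulation factor made by monocytes and macrophages, was past 2-fold, at 5019 and 2048 counts and a ratio of 0.393 (0.373 to 0.414), and it is also on the resident macrophage list. The others were Fn1, Csf1r (16058 and 15428 counts) and Klf4 (4698 and 4767), a factor of monocyte differentiation.

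B cell markers were higher, with 18 of 20 above control, 2 (10.0%) at least 2-fold, and a median of 0.44 beside 0.22 in sFD17 and 0.36 in FR17. Ms4a1, which encodes CD20, had 244 counts in control and 604 in TP5, beside 222 in sFD17 and 475 in FR17, a ratio of 2.38 (2.05 to 2.78). Cd79a, a chain of the B cell receptor complex, had 463 and 835 counts, a ratio of 1.74 (1.55 to 1.95). Among the 16 plasma cell genes, 7 were higher and 9 lower. Igha, the IgA heavy chain, had 1337 counts in control and 677 in TP5, beside 366 in sFD17 and 2576 in FR17, a ratio of 0.488 (0.444 to 0.535), while Igkc, the κ light chain, had 1291 and 1357. Of the IgG heavy chains, Ighg2b had 68 and 31 counts and Ighg1 1 and 13. The 109 variable segments compared split into 16 at least 2-fold higher and 31 at least 2-fold lower, around a median of −0.11. The 14 with at least 50 counts went the other way, with 9 higher, 6 of them at least 2-fold, and 5 lower, 2 of them at least 2-fold, and a median of 0.67. Of those 14, Ighv5-17 had the largest difference, with 13 counts in control and 165 in TP5, beside 15 in sFD17 and 23 in FR17.

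**Figure D4:**
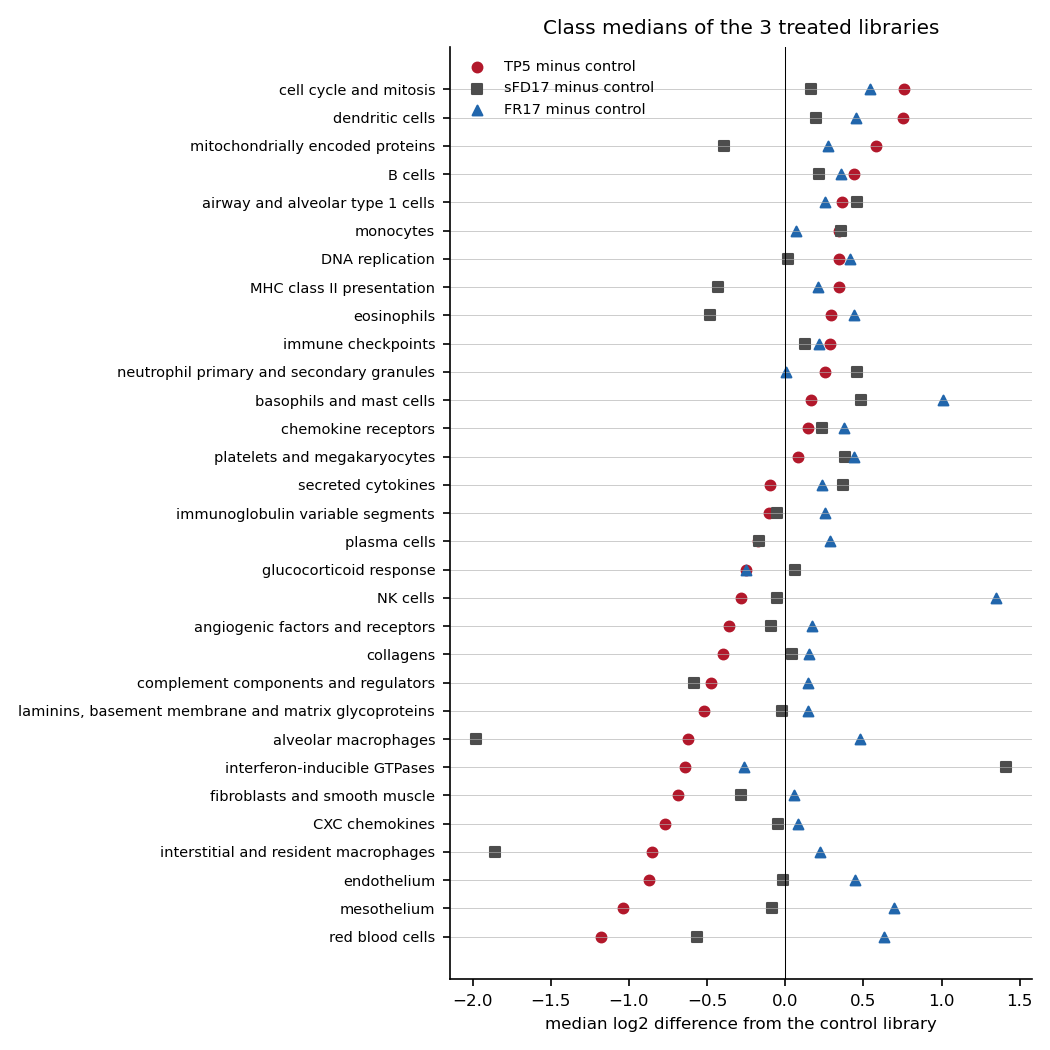
Class medians of the log2 difference from the control library are plotted for TP5 (red circles), sFD17 (grey squares) and FR17 (blue triangles), 1 library each, for the 31 described classes. All 3 series share the same control library, and for the GTPases TP5 lies at −0.64 and sFD17 at 1.41.

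Smaller lists of granulocytes and blood cells moved in mixed directions. Among 15 basophil and mast cell genes, 4 were at least 2-fold higher and 3 at least 2-fold lower. The basophil proteases Mcpt8 (18 counts in control and 57 in TP5) and Prss34 (18 and 58) were higher, at ratios of 3.05 (1.77 to 5.51) and 3.10 (1.80 to 5.596). The mast cell proteases Mcpt4 (13 and 1), Cma1 (24 and 5) and Tpsb2 (19 and 7) were lower, on few counts. Hdc, the histamine-forming enzyme that neutrophils also make, had 61509 and 47794 counts, a ratio of 0.748 (0.739 to 0.757). Among 9 eosinophil genes, Prg2, the major basic protein, had 19 and 72 counts and Ccr3 57 and 134, whereas Alox15, a lipoxygenase that resident peritoneal and pleural macrophages also make, had 2267 and 836, a ratio of 0.355 (0.328 to 0.385). The list's median, 0.30, turned to −0.19 over its 6 members with at least 50 counts.

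Red blood cell genes were lower in 7 of 8 cases, at least 2-fold in 6, and 1 was at least 2-fold higher. Their median was −1.18, but on 445 counts in control and 219 in TP5 in all. Hbb-bs, a β-globin, had 175 and 77 counts, a ratio of 0.424 (0.320 to 0.557). Of 13 platelet genes, 8 were higher and 5 lower, with a median of 0.08, and apart from Pf4 those with at least 50 counts that were past 2-fold were F2rl2 (41 and 92) and Nrgn (20 and 51). NK cell genes had a median of −0.29 over 22 members beside −0.05 in sFD17 and 1.35 in FR17, and −0.09 over the 9 with at least 50 counts, of which 4 were higher and 5 lower. Klrd1, which encodes CD94, had 102 counts in control and 190 in TP5, beside 92 in sFD17 and 269 in FR17, a ratio of 1.79 (1.40 to 2.31). Gzma, a granzyme, had 247 counts in control and 147 in TP5, beside 137 in sFD17 and 1090 in FR17, a ratio of 0.573 (0.464 to 0.706).

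Airway and alveolar type 1 cell genes were mostly higher in TP5. Of 19, 14 were higher, with a median of 0.37, and the list took 0.0834% of counts in control and 0.131% in TP5. Bpifa1, an antimicrobial airway protein, had 535 counts in control and 1790 in TP5, beside 1448 in sFD17 and 809 in FR17, a ratio of 3.22 (2.92 to 3.55). Scgb1a1, the club cell secretoglobin, had 9541 and 15350 counts, a ratio of 1.55 (1.51 to 1.59). This airway gene held most of the list's 14295 counts in control and 22467 in TP5. Without Scgb1a1 the ratio of the shares, TP5 to control, moved from 1.57 to 1.49. Krt8, a keratin of simple epithelia, had 49 and 100 counts, a ratio of 1.965 (1.38 to 2.83). Clic5 and Cav1, of type 1 cells and endothelium, were lower instead, with 162 and 73 counts and 555 and 269 counts and ratios of 0.434 (0.325 to 0.576) and 0.467 (0.402 to 0.541).

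**Figure D5:**
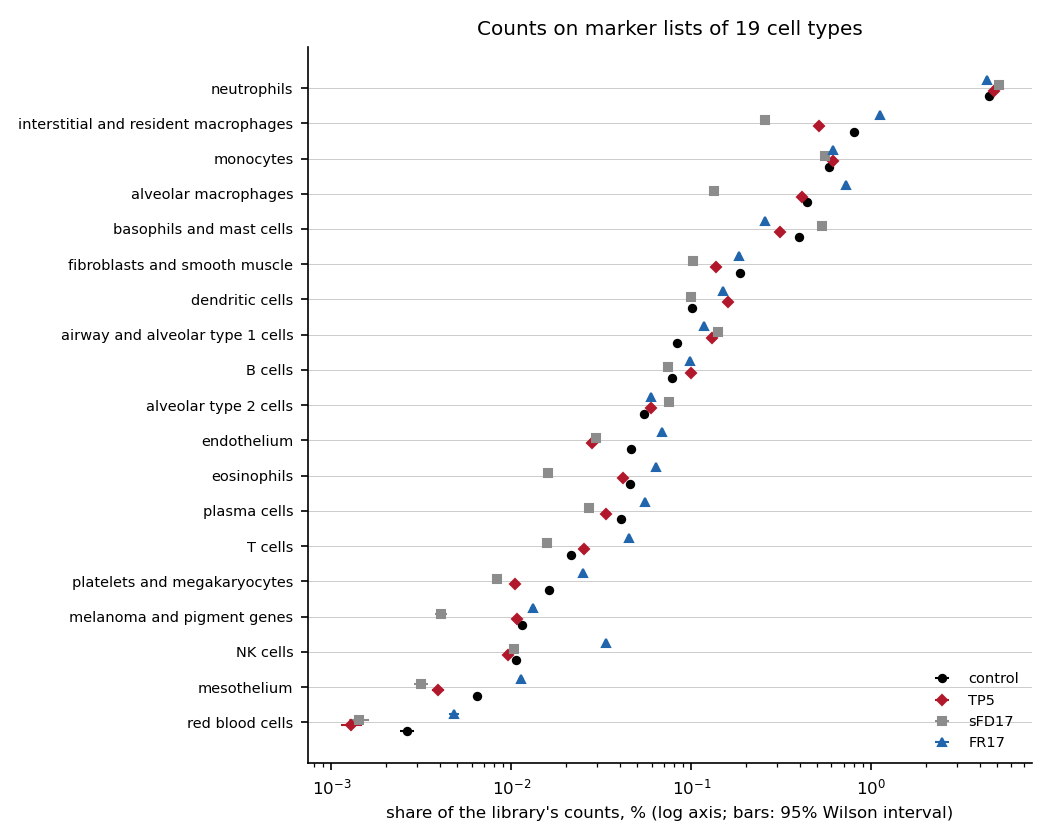
The share of each library's counts on 19 marker lists is plotted on a log axis in percent, for control (black circles), TP5 (red diamonds), sFD17 (grey squares) and FR17 (blue triangles), with 95% Wilson intervals from counting error. Neutrophil markers lie at 4.49% in control and 4.81% in TP5, and TP5 lies below control for resident macrophages (0.512% against 0.802%) and endothelium and above it for dendritic cells.

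The remaining classes concern metabolism and regulation. Of the 13 protein genes of the mitochondrial genome, 12 passed the filter on low counts, and these 12 were higher in TP5 with 0 past 2-fold, with a median of 0.58 beside −0.39 in sFD17 and 0.28 in FR17. mt-Nd5, a subunit of complex I, had 3835 counts in control and 6058 in TP5, beside 2281 in sFD17 and 5674 in FR17, a ratio of 1.52 (1.46 to 1.58), and mt-Co1, a subunit of complex IV, had 39193 and 48921, a ratio of 1.20 (1.19 to 1.22). Several of these genes had under 100 counts, such as mt-Co3 with 46 and 51. The mitochondrial genome took 0.456% of all counts in control and 0.615% in TP5, and nuclear genes of oxidative phosphorylation had a median of 0.08 over 79 members.

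Glucocorticoid-responsive genes were slightly lower, 20 of 25, with a median of −0.25. Cd163, the 1 member past 2-fold, and Mertk, an uptake receptor for dying cells (1087 and 720 counts, a ratio of 0.638), are also on the resident macrophage list, which was lower as a class. Per1, a clock gene induced by the hormone, had 21397 counts in control and 15053 in TP5, a ratio of 0.678 (0.663 to 0.692), and Tsc22d3, the leucine zipper GILZ, had 5267 and 3705, a ratio of 0.677 (0.649 to 0.707). Fkbp5, a chaperone of the receptor, had 1838 and 1978, a ratio of 1.04 (0.972 to 1.10). Of 28 immune checkpoint genes, 20 were higher, 1 at least 2-fold each way, with a median of 0.29. Cd226, an activating receptor, had 73 and 170 counts, a ratio of 2.24 (1.70 to 2.99), and Cd276, the inhibitory ligand B7-H3, had 89 and 44, a ratio of 0.476 (0.324 to 0.691), with 11.4% of its exon bases opposite an unnamed model. Cd274, which encodes PD-L1, had 5399 counts in control and 4253 in TP5, beside 11398 in sFD17 and 4144 in FR17, a ratio of 0.759 (0.729 to 0.790).

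Tmpo, the gene named for the thymopoietin from which TP5 derives, had 1625 counts in control and 1900 in TP5, beside 1501 in sFD17 and 2081 in FR17, a ratio of 1.13 (1.05 to 1.20). A list of 14 genes that joins Tmpo and the thymosins with genes of the nuclear envelope and lamina had a median of 0.14, with 11 higher in TP5 and 0 past 2-fold. Its largest difference was that of Lmnb2, which encodes lamin B2, at 164 and 287 counts and a ratio of 1.69 (1.39 to 2.05), while Lmnb1, for lamin B1, had 26830 and 22463, a ratio of 0.806 (0.792 to 0.821).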

How the data were processed

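Lung CD11b+Ly6g+ MDSCs of 4 groups were sequenced in 1 library per group. The values deposited by the authors are counts of reads on each gene, not normalized, and the submitters' processing notes name HISAT2 2.0.5, StringTie 1.3.3b, featureCounts 1.5.0-p3, edgeR 3.18.1 and the build GRCm38.p6. According to the methods, a directional kit was used; the strand setting of the counting is not given in the sources used here. Columns were matched to samples by group name, and the number of sample columns without a match was 0. For 100 symbols found on several rows, that with the highest total was taken.

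Counts were analysed with R 4.3.3, edgeR 4.0.16, Python 3.11.15, pandas 2.3.3, numpy 2.4.6, scipy 1.17.1 and matplotlib 3.10.9. Genes reaching 10 counts in any library were kept, with TMM factors over the 4 libraries, and log2 CPM were formed with a prior count of 2. Ratios are of CPM on the TMM-scaled totals, without the prior count. A fold against a library at 0 uses a floor of 3 counts. The quasi-likelihood test needs residual degrees of freedom, which 1 library per group does not leave. EdgeR's exact test, run as an alternative, compares 2 libraries and not the conditions. The procedure was tested on simulated data. The totals, 15543071 to 19638228 counts, set the counting error only.

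The members, gene lists and naming rule were chosen with earlier results of these data known. Within each class, up to 5 genes with the largest difference among those with at least 50 counts in TP5 or control were named, and over all genes the 15 largest either way. The sorting markers, Tmpo and genes of proteins the study measured were added, and other list members are given with both counts. Promoter windows came from RefSeq (GRCm38.p6), and exon overlaps from GENCODE M21, in which 37 of 394 genes checked share at least 10% of their exon bases with another gene. Alternatives were DESeq2 1.42.0 size factors, library size alone, a prior count of 0.5, 3 other count filters, a 1.5-fold call, a call that needs the counting interval beyond 1.5-fold, edgeR's exact test, and 2 changes to marker shares. Some genes that were measured are not reported here.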

Additional observations from a re-analysis of the deposited data

How the results depend on the processing

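The counts of genes past 2-fold depended most on the filter and the call. Against 523 genes higher and 816 lower, there were 1553 and 2017 with no filter, 180 and 314 with at least 10 counts in every library, and 140 and 220 with at least 50 counts in TP5 or control. A 1.5-fold call gave 1470 and 1939, a 2-fold call whose counting interval lay beyond 1.5-fold gave 174 and 288, and edgeR's exact test at an unadjusted p under 0.05, with a dispersion over the 4 libraries as 1 group, gave 126 and 198. DESeq2's size factors, library size alone and a prior count of 0.5 kept both counts within 1.5 times, and library size alone moved the median of all genes to 0.05. With at least 50 counts, the median of complement genes moved to −0.79, and those of eosinophil genes, immunoglobulin variable segments, plasma cells and platelets turned to −0.19, 0.67, 0.02 and −0.01. The ratio of marker shares of TP5 to control turned to 0.913 for neutrophils without the 10 most abundant genes, and without the most abundant marker to 0.99 for monocytes, 1.11 for platelets and 1.01 for pigment genes. No paired analysis was possible because each group has 1 library and no replicate number, and no library could be left out.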

Other observations

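Some classes whose medians lay near that of all genes were still uneven in direction. Of 83 cytosolic ribosomal protein genes, 77 were higher in TP5, with a median of 0.20 and 0 past 2-fold, and of 67 translation factors 53 were higher, with a median of 0.18. Of 49 lysosomal genes, 8 were higher and the median was −0.22. Ctsd, a lysosomal protease, had 14585 counts in control and 10553 in TP5, a ratio of 0.697 (0.679 to 0.715), although 34.4% of its exon bases are shared with an unnamed model on the same strand. Of 24 genes of MHC class I and peptide loading, 17 were lower and 7 higher, with a median of −0.21 and 0 past 2-fold, whereas 12 of 13 genes of class II presentation were higher. H2-K1 had 43121 and 32085 counts, a ratio of 0.717 (0.706 to 0.727), and B2m, the shared light chain, had 40099 and 32336, a ratio of 0.776 (0.765 to 0.788).

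Of 21 genes of prostaglandin and leukotriene synthesis, 16 were lower and 5 higher in TP5, with 3 at least 2-fold lower and 0 at least 2-fold higher. Ptgis, the prostacyclin synthase, had 315 counts in control and 84 in TP5, a ratio of 0.257 (0.199 to 0.328), and Ltc4s, which makes leukotriene C4, had 273 and 116, a ratio of 0.409 (0.326 to 0.510), with 26.4% of its exon bases opposite an unnamed model. Lta4h, which makes leukotriene B4, had 1821 and 2937 counts, a ratio of 1.55 (1.46 to 1.65), and its receptor gene Ltb4r1 had 1217 and 1861, a ratio of 1.47 (1.37 to 1.58). Among Wnt ligands, Wnt11 had 444 and 1037 counts, a ratio of 2.25 (2.01 to 2.52), opposite in direction to Wnt2. Of the BMP ligands, Bmp2 had 212 and 89 counts, a ratio of 0.404 (0.312 to 0.520), and Bmp6 had 87 and 45. Il2ra, the interleukin 2 receptor chain of activated and regulatory T cells, had 20 and 75 counts, a ratio of 3.61 (2.18 to 6.25). The T cell marker Cd4, which macrophages can also express, had 398 and 192, a ratio of 0.465 (0.389 to 0.553). None of these differences has a replicate check.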
